A study of Homo sapiens with 12 samples.

Results

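Gene expression of CD99 transfectants of the SaOS-2 line was compared with that of the parental cells after 7 days in osteogenic medium. The comparison holds 4 of the 12 arrays of the series: the 2 clones labelled Sa/CD99, wt22 and wt36, with 1 array each, and 2 arrays of parental SaOS-2 cells. They were chosen by line and day alone. Of 54675 probe sets on the array, 18677 had a signal above 100 (6.64 on the log2 scale) in at least 4 of the 12 arrays and entered the tests, and they represent 9731 genes by name.

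SaOS-2 is an established human osteosarcoma line with osteoblast features. The parental cells are labelled as not transfected. The clones carry CD99 after calcium phosphate transfection and were selected in neomycin, and each is a stable line of its own. All 4 cultures were seeded in routine medium, moved to osteogenic medium 4 days later and harvested at day 7 of that medium, and their total RNA was measured on Affymetrix arrays of the type HG-U133 Plus 2.0. The other 8 arrays hold the same lines at days 0 and 14 and were used to estimate the spread and to test whether a difference at day 7 differed from that on another day. Because the parental cells were not selected and no empty-vector line is used here, an effect of CD99 cannot be told apart from one of transfection, of selection or of picking a clone.

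CD99 is a small glycoprotein of the cell surface that takes part in cell adhesion, migration and cell death, and osteosarcomas often have little of it. Osteoblasts differentiate under transcription factors such as RUNX2, SP7 and the DLX homeobox proteins, driven by BMP, TGF-beta and Wnt signals, and go on to secrete type I collagen and to mineralize it with the help of alkaline phosphatase. Adhesion by N-cadherin and the surface protein THY1 are features of cells at the mesenchymal and early osteoblast stages.

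The 2 parental arrays of day 7 lay close together (r = 0.997, SD of their difference 0.12 on the log2 scale), and the clones lay further apart (r = 0.974, SD of the difference 0.36). The SE of each difference pooled the spread within all 6 groups of the 12 arrays, which holds differences between clones and between parental arrays. Whether parental arrays of a day stem from independently grown cultures is not stated, and p-values therefore reflect variation among these 12 arrays, part of which may be technical. Array medians were between 5.28 and 5.31. The 3' minus 5' signal of the actin control, a sign of RNA degradation, was 0.46 for clone wt36, 0.18 for clone wt22 and 0.13 and 0.14 for the parental arrays. That of the GAPDH control was 0.14, 0.05, 0.04 and 0.03 in the same order. The part of this difference in the results below was not tested, and counts without clone wt36 are given beside the totals.

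CD99 itself was read by 2 probe sets. The one of lower mean signal gave log2 values of 8.36 in clone wt22 and 6.73 in clone wt36 against 11.55 and 11.88 in SaOS-2, so both clones lay below both parental arrays (a log2 difference of -4.17, SE 0.43, adjusted p = 0.00366). The one of higher mean signal gave 12.64 and 12.55 in the clones and 12.51 and 12.53 in SaOS-2 (0.07, SE 0.07, adjusted p = 0.596). The first goes against the label and the second shows no called difference. Whether the transfected sequence holds the stretch that either probe set reads is not known here. The study states that real-time PCR verified CD99 expression in every sample it profiled, before and during differentiation. Those data were not analysed here. Neither probe set was called higher in the libraries labelled Sa/CD99, and all directions below are given as these labels have them. Without SaOS-2 replicate 2 the first value did not pass (-4.01, adjusted p = 0.0620).

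Osteoblast lineage markers were present on all 4 arrays. Of 9 markers with a probe set naming them alone, 7 lay above the floor on every array, among them RUNX2 (12.25 to 12.31), COL1A1 (12.89 to 13.28), SPARC (11.97 to 12.21) and ALPL (11.28 to 11.86). SPP1, which encodes osteopontin, lay between 3.77 and 3.95, under the floor throughout. IBSP was above it on 3 arrays and at 6.44 in clone wt36. Of the cartilage markers 1 of 5 passed (SOX9), of the fat markers 1 of 5 (PPARG), of the muscle markers 2 of 5 (CKM, at 7.27 to 7.70, and ACTC1, under the floor on these 4 arrays), of the macrophage or osteoclast markers 1 of 3 (CSF1R, at 6.27 to 6.74), and of the endothelial markers 0 of 3. EPCAM and KRT18 passed among the epithelial markers, with CDH1 between 3.20 and 3.59. The linear signals of the osteoblast markers, a sum in which the brightest probe sets weigh most, came to 23674 and 24473 in SaOS-2, 30698 in clone wt22 and 25719 in clone wt36. COL1A2 accounted for most of the surplus of clone wt22, with 12.82 there and 10.67 to 10.80 on the other 3 arrays.

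At day 7, 85 of 9731 genes had lower signal in the Sa/CD99 clones (0.873%) and 37 were higher (0.38%). Calls required a Benjamini-Hochberg adjusted p of at most 0.05 by limma, a change of at least 1.5-fold and that both clones lay on the same side of both parental arrays. The lower genes ranged from 1.5-fold to 21.9-fold (median 1.81-fold), with 32 at 2-fold or more and 12 at 4-fold or more. The higher genes reached at most 3.12-fold (median 1.63-fold), and 6 of them passed 2-fold. In 28 of the lower and 11 of the higher genes the dimmer group had a mean under the floor, where no detection calls were used here, so that their folds are differences of the deposited signals and not exact ratios of RNA. Of the 57 lower and 26 higher genes with both means above the floor, SSUH2 had the largest lower value (4.23-fold) and TNFRSF9 the largest higher one (2.01-fold). In all 122 genes (1.25%) and 232 of 18677 probe sets (1.24%, 183 lower and 49 higher) were called. Because RNA of whole cultures was measured, fewer cells that express a gene and less RNA per cell cannot be told apart.

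The clones were below both parental arrays for 2314 genes (23.8%) and above both for 3108 (31.9%), whatever the size of the difference, so agreement of the clones alone was common. The number of calls depended on single arrays of both lines. From 232 probe sets it dropped to 25 when SaOS-2 day 7 replicate 1 was left out and to 17 when replicate 2 was, and it was 131 without clone wt36, 580 without clone wt22 and 120 without any 1 of the parental arrays of days 0 and 14. The 4 arrays of day 7 fitted alone gave 7 probe sets. Of the 59 called genes named below, 13 stayed called without SaOS-2 day 7 replicate 1, 7 without replicate 2, 32 without clone wt36 and 50 without clone wt22, and none changed sign. The signs could not change there, because a call required both clones on 1 side of both parental arrays. When the probe sets past the floor were quantile-normalized once more, 324 passed and 63.6% of them were lower, against 183 of the 232.

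**Figure D1:**
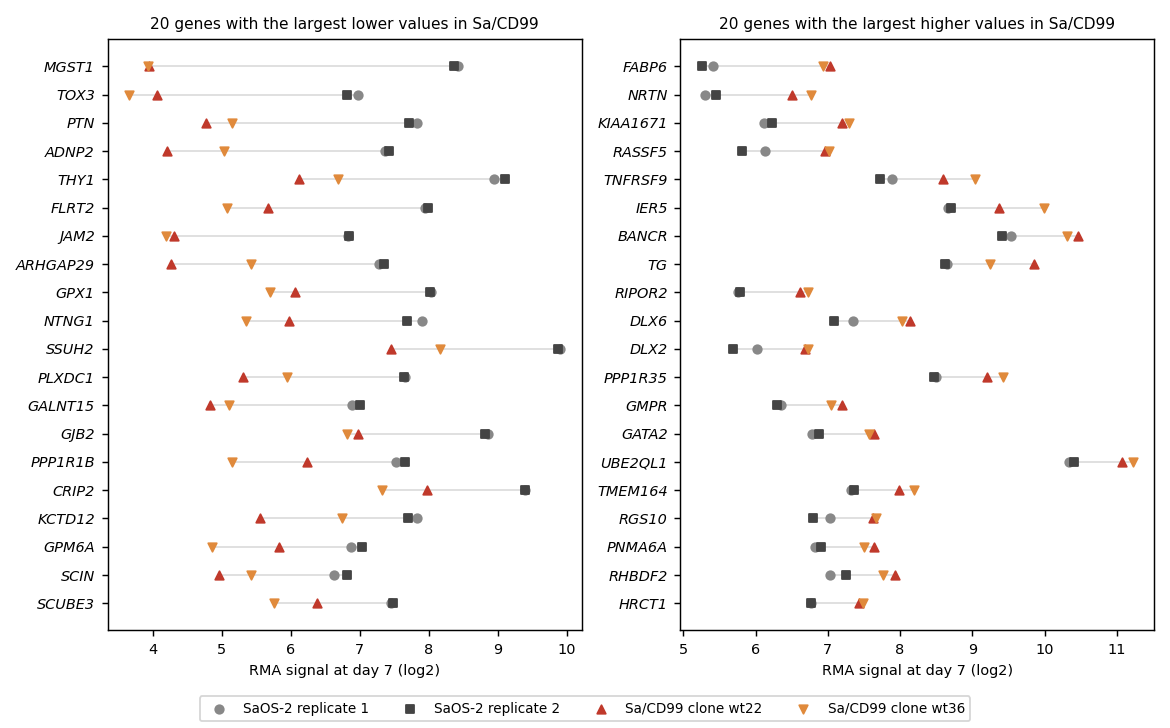
RMA signal (log2) at day 7 on each of the 4 arrays, for the 20 genes with the largest lower and the 20 with the largest higher values in Sa/CD99; circles and squares are the SaOS-2 arrays, triangles the clones wt22 and wt36. MGST1 lies at 3.95 and 3.93 in the clones against 8.43 and 8.36 in SaOS-2, and FABP6 at 7.03 and 6.93 against 5.41 and 5.26.

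The largest difference in signal was that of MGST1, a membrane-bound glutathione transferase that protects membranes from oxidation. Its log2 signal was 3.95 in clone wt22 and 3.93 in clone wt36, against 8.43 and 8.36 in the parental cells (a log2 difference of -4.45, SE 0.29, adjusted p = 0.000416). A further probe set of MGST1, which like the first may cross-hybridize, gave 3.77 and 3.96 against 7.82 and 7.91. Both clones were thus far below the floor and the parental arrays well above it, so the size of the difference is not exact. GPX1, the cytosolic glutathione peroxidase, had 6.06 and 5.70 in the clones and 8.03 and 8.02 in SaOS-2 (-2.14, SE 0.32, adjusted p = 0.0148).

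Over the list of 34 measured glutathione and redox enzymes MGST1 and GPX1 were the 2 genes called lower, none was called higher and 32 did not pass. The list median was 0.04, close to the 0.03 of all 9731 genes. GSTP1, the pi class glutathione transferase, had the highest value among these 34, with 10.63 and 10.69 in the clones against 10.27 and 10.11 (0.47, adjusted p = 0.0357), but lay under 1.5-fold. For GPX3, the plasma glutathione peroxidase, the clones were 4.73 and 7.06 and the parental arrays 7.74 and 7.69, so its group difference of -1.81 came with an SE of 0.92.

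THY1, a surface protein of mesenchymal and stromal cells, had 6.12 and 6.69 in the clones against 8.95 and 9.10 in SaOS-2 (-2.62, SE 0.17, adjusted p = 0.000416). All 3 of its probe sets were called lower, the others at -3.56 and -3.44. Of 23 measured mesenchymal and stromal surface markers THY1 alone was called, and 22 did not pass (list median -0.13, and 0.02 in clone wt36 alone). Among those not called, ENG, a co-receptor for TGF-beta, stood at 0.38 and CD44, the hyaluronan receptor, at 8.07 and 9.76 in the clones around parental values of 9.25 and 9.31.

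Of the adhesion genes, JAM2, a junctional adhesion molecule, had 4.32 and 4.19 in the clones against 6.83 and 6.84 (-2.59, SE 0.22, adjusted p = 0.00149). DSG2, a desmosomal cadherin, had 7.71 and 8.35 against 9.42 and 9.31 (-1.34, SE 0.19). CDH2, which encodes N-cadherin, had 7.04 and 7.36 against 8.33 and 8.39 (-1.16, SE 0.22, adjusted p = 0.0343), and its other probe set gave -1.01. As the rule for calls requires, the clones lay below the parental arrays in each of the 3, here by more than the distance between clones. OCLN, a tight junction protein of epithelia, was also lower (-0.71, SE 0.12), but its other probe set was not called (-0.39, adjusted p = 0.184) and the mean of both was under 1.5-fold (-0.55).

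Of 20 measured cadherins and junction proteins these 4 were lower and 16 did not pass, and the list median was -0.22. Both clones were below SaOS-2 for 11 of the 20 and above for 3, where 23.8% of all genes were below and 31.9% above. The beta-catenin gene CTNNB1 had 11.51 and 11.47 against 11.50 and 11.53. GJB2, a gap junction subunit, was lower as well, with 6.97 and 6.82 in the clones and 8.87 and 8.82 in SaOS-2 (-1.94, SE 0.14, adjusted p = 0.000635). GJB2, JAM2, MGST1 and TOX3 were the named genes that stayed called under every alternative setting and with any 1 array left out.

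In the list on epithelial-mesenchymal transition 3 of 15 measured genes were lower, CDH2, OCLN and TCF4, a bHLH transcription factor (8.69 and 8.48 against 9.32 and 9.27, -0.71, SE 0.11), 0 were higher and 12 did not pass (median -0.19). CDH2 is a gene of mesenchymal cells and OCLN of epithelial ones. SNAI1, a repressor of E-cadherin, was 7.29 and 7.11 in the clones and 7.60 and 7.67 in SaOS-2 (-0.44, adjusted p = 0.0551), and TWIST1 was at 0.21. KRT18, an epithelial keratin, was at 8.02 in clone wt22 and at 8.85 in clone wt36, beside 7.86 and 7.87 in SaOS-2.

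Growth factors of nerve cells were called in both directions. PTN, the growth factor pleiotrophin, had 4.78 and 5.15 in the clones against 7.84 and 7.72 in SaOS-2 (-2.81, SE 0.39, adjusted p = 0.0109). Its 3 probe sets were all called lower, but all 3 are of a kind that may cross-hybridize. NRTN, a ligand of the GDNF family, went the other way, with 6.50 and 6.77 against 5.30 and 5.45 (1.26, SE 0.12, adjusted p = 0.00266). These were the 2 called genes among 11 measured neurotrophic factors and receptors (median 0.04). MDK, midkine, the relative of PTN, was 10.11 in clone wt22, 6.07 in clone wt36 and 9.14 and 9.25 in SaOS-2, so its clones lay on opposite sides of the parental arrays.

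FLRT2, a transmembrane protein that binds axon guidance receptors, had 5.67 and 5.08 in the clones against 7.94 and 7.99 (-2.59, SE 0.25, adjusted p = 0.00303). NTNG1, a membrane-anchored netrin, had 5.98 and 5.35 against 7.90 and 7.68 (-2.12, SE 0.19, adjusted p = 0.00186). Both were well separated from SaOS-2. They were the called members of 34 measured axon guidance genes, whose median was -0.05. EPHA3, an ephrin receptor, was at 4.14 in clone wt22 and at 7.12 in clone wt36, beside 7.05 and 7.01 in SaOS-2.

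Other genes with large lower values have roles in transcription, the cytoskeleton and signalling. TOX3, an HMG-box protein, had 4.07 and 3.66 in the clones against 6.97 and 6.82 (-3.03, SE 0.25, adjusted p = 0.00149). ADNP2, a homeobox zinc finger protein, had 4.21 and 5.03 against 7.37 and 7.43 (-2.78, SE 0.28). ARHGAP29, a GTPase-activating protein for RhoA, had 4.27 and 5.43 against 7.28 and 7.36 (-2.47, SE 0.39). In these 3 the clones were under the floor and SaOS-2 above it.

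SSUH2 (-2.08), the endothelial surface protein PLXDC1 (-2.02), the glycosyltransferase GALNT15 (-1.98), the phosphatase inhibitor PPP1R1B (-1.90), the LIM protein CRIP2 (-1.74), KCTD12 (-1.63), the neuronal membrane glycoprotein GPM6A (-1.61), the gelsolin-like SCIN (-1.53) and the secreted protein SCUBE3 (-1.4) completed the 20 largest. Their SEs were between 0.18 and 0.34. The other probe set of KCTD12 was not called (-1.11, adjusted p = 0.0739). CRIP2 had 7.98 and 7.32 in the clones against 9.39 in both parental arrays, and SSUH2 7.45 and 8.16 against 9.90 and 9.87.

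FABP6, the ileal bile acid binding protein, had the largest value of the higher genes. Its log2 signal was 7.03 in clone wt22 and 6.93 in clone wt36, against 5.41 and 5.26 in SaOS-2 (1.64, SE 0.16, adjusted p = 0.00303). The parental values of FABP6, like those of NRTN, were under the floor, so these sizes are not exact either. For NRTN clone wt22 (6.50) and the mean of the clones (6.63) were under it as well. Of 19 measured genes of fatty acid binding and lipid storage 3 were higher, FABP6, DGAT2, which makes triglycerides (7.48 and 7.5 against 6.93 and 6.70, 0.68), and VLDLR, a lipoprotein receptor (7.64 and 7.73 against 7.07 and 6.98, 0.66). None was lower and 16 did not pass (median 0.08). The other probe set of DGAT2 was under 1.5-fold (0.57). PPARG, the master factor of fat cells, had 6.78 and 7.69 around parental values of 7.35 and 7.37.

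After FABP6 and NRTN, the next in size were KIAA1671, with 7.20 and 7.30 against 6.11 and 6.23 (1.08, SE 0.15), and RASSF5, a Ras effector, with 6.96 and 7.02 against 6.13 and 5.82 (1.02, SE 0.13, adjusted p = 0.00791). TNFRSF9, a TNF receptor of activated lymphocytes, had 8.59 and 9.03 against 7.89 and 7.72 (1.01, SE 0.20). Its other probe set was not called (0.46, adjusted p = 0.198), and TNFRSF9 did not pass with the mean of both (0.74, adjusted p = 0.0616). The immediate early gene IER5 had 9.37 and 10.0 against 8.66 and 8.70 (1.0, SE 0.19). KIAA1671, RASSF5, TNFRSF9 and IER5 were above both parental arrays in both clones. The noncoding RNA BANCR (0.92), TG, which encodes thyroglobulin (0.92), RIPOR2, an inhibitor of RhoA (0.90), the phosphatase subunit PPP1R35 (0.82), GMPR, a guanosine monophosphate reductase (0.80), and GATA2, a zinc finger transcription factor (0.77), followed. UBE2QL1 (0.77), TMEM164 (0.75), RGS10, a regulator of G protein signalling (0.73), PNMA6A (0.71), RHBDF2, an inactive rhomboid (0.70), and HRCT1 (0.69) closed the 20 largest. The other probe set of UBE2QL1 was not called (0.59, adjusted p = 0.107). A further probe set of TMEM164 was called (0.75) and another was not (0.50, adjusted p = 0.0633).

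Promoter sequences are shown for the largest lower gene and for the 2 largest higher ones, as the stretch of 250 bases before the start of the gene in RefSeq on GRCh38.p14. Capitals mark 5 motifs searched on both strands: the GC box GGGCGG, the TATA box TATAAA, the core of the antioxidant response element TGACNNNGC, the RUNX core TGTGGT and the homeodomain core TAATTA. MGST1 is shown from chr12:16347395-16347644 on the plus strand, FABP6 from chr5:160229256-160229505 on the plus strand and NRTN from chr19:5804817-5805066 on the plus strand.
MGST1: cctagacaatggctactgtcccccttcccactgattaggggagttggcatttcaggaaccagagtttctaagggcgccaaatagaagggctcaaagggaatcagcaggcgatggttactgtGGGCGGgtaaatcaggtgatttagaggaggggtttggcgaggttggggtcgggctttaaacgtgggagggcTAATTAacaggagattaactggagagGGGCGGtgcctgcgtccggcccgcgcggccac
FABP6: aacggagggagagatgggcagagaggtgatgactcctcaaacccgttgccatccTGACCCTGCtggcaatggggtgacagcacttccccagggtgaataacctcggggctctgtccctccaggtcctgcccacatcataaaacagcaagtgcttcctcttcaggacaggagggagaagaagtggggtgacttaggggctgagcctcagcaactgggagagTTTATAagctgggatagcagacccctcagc
NRTN: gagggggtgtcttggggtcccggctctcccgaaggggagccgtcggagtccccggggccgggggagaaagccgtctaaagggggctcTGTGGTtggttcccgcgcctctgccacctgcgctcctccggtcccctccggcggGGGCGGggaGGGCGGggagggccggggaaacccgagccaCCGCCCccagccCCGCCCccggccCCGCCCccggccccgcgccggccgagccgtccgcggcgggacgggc
The MGST1 stretch holds 2 GC boxes and 1 homeodomain core. The stretch of PTN, the next largest lower gene with an entry, is not shown and holds none of the 5 motifs. That of FABP6 holds 1 TATA box and 1 antioxidant response core, and that of NRTN 5 GC boxes and 1 RUNX core. Of all 35116 RefSeq promoters compared, 42.6% hold a GC box, 10.7% a TATA box, 10.9% the antioxidant core, 11% the RUNX core and 4.35% the homeodomain core. Among 73 lower genes with an entry the shares were 71.2%, 6.85%, 9.59%, 5.48% and 2.74%, and among 28 higher genes 67.9%, 3.57%, 21.4%, 17.9% and 0%, beside 69.4%, 4.83%, 12.7%, 6.87% and 1.74% of the promoters of 8156 tested genes. A match of letters is no binding site, and binding was not measured.

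Osteoblast transcription factors were described as a list of 25 measured genes. DLX6 had 8.14 and 8.03 in the clones against 7.35 and 7.08 in SaOS-2 (0.87, SE 0.18, adjusted p = 0.0431), and DLX2 6.68 and 6.73 against 6.02 and 5.69 (0.85, SE 0.11, adjusted p = 0.0096). Both encode homeobox proteins of skeletal development. The parental values of DLX2 were under the floor (6.64), and those of the clones just above it. These 2 genes were higher, 0 were lower and 23 did not pass (median 0.02). The other probe set of DLX6 did not show the difference between groups, with 6.84 and 6.10 against 6.28 and 6.18 (0.24, adjusted p = 0.558), and DLX6 did not pass with the mean of both.

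DLX5, the neighbour of DLX6, had 10.98 and 10.44 against 10.15 and 10.11 (0.58, SE 0.19, adjusted p = 0.143), with both clones above both parental arrays. RUNX2, the master regulator of osteoblasts, was at 12.31 and 12.25 in the clones and at 12.28 and 12.29 in SaOS-2 (-0.01, SE 0.10). SP7, the factor downstream of it, had 8.34 and 7.43 against 7.51 and 7.5. PRRX1, a mesenchymal homeobox gene, had the largest value of the list, 0.90, with an SE of 0.43.

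Of 19 measured genes of bone matrix and mineralization 1 was lower, SERPINH1, the collagen chaperone HSP47, with 6.33 and 7.05 against 7.87 and 8.0 (-1.25, SE 0.20, adjusted p = 0.0186). None was higher and 18 did not pass (median 0.05). ALPL, tissue-nonspecific alkaline phosphatase, had 11.28 and 11.38 in the clones and 11.86 and 11.81 in SaOS-2, so both clones lay below (-0.51, SE 0.14, adjusted p = 0.101). The mean of the probe sets of ALPL passed (-0.63, adjusted p = 0.048). COL1A1 (0.17, SE 0.19) and SPARC, osteonectin (0.05, SE 0.14), did not pass.

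IBSP, bone sialoprotein, differed in opposite directions between the clones: 10.67 in clone wt22, 6.44 in clone wt36 and 8.44 and 8.55 in SaOS-2. Its mean difference of 0.06 therefore had an SE of 1.46, and its other probe set showed the same order, with 8.97 and 5.88 around 7.09 and 7.04. COL11A1, a fibrillar collagen of cartilage, had 9.92 and 6.79 against 11.08 and 11.09 (-2.73, SE 1.4, adjusted p = 0.3). None of the 26 measured collagens and basement membrane genes was called (median -0.01).

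**Figure D2:**
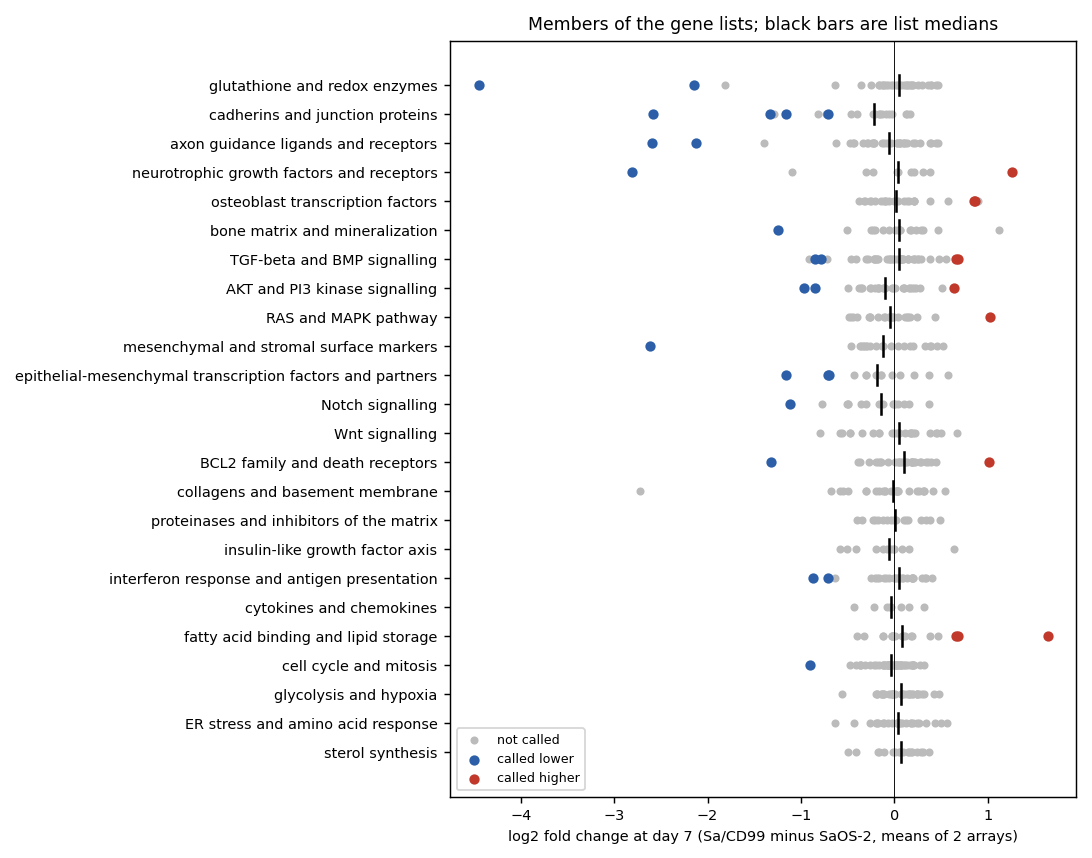
Log2 fold change at day 7 (Sa/CD99 minus SaOS-2, means of 2 arrays) of every measured member of 24 gene lists, 1 dot per gene, with called genes in blue (lower) and red (higher) and the list median as a black bar. List medians lie between -0.22 and 0.11, and called genes stand out singly at the edges of their lists.

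Within TGF-beta and BMP signalling 2 of 42 measured genes were lower and 2 higher, and 38 did not pass (median 0.05). SMAD4, the common partner of the receptor-activated SMADs, had 8.31 and 8.63 against 9.36 and 9.29 (-0.85, SE 0.11, adjusted p = 0.00798). SMAD2, a transducer of TGF-beta signals, had 8.85 and 8.93 against 9.74 and 9.61 (-0.79, SE 0.09, adjusted p = 0.00667). In both genes the clones lay below SaOS-2, as the rule for calls requires.

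LTBP1, which stores latent TGF-beta in the matrix, had 8.73 and 9.01 against 8.18 and 8.20 (0.68, SE 0.12), and SMURF1, a ubiquitin ligase that acts on BMP-regulated SMADs, 9.27 and 9.58 against 8.80 and 8.73 (0.66, SE 0.11). The ligand gene TGFB1 had 10.73 and 9.79 against 11.21 and 11.14 (-0.91, SE 0.26, adjusted p = 0.106). ID1, a target of BMP signals, had 7.44 and 7.38 against 7.30 and 7.22 (0.15, SE 0.11, adjusted p = 0.466). The change of SMURF1 was 0.49 with the mean of its probe sets, under 1.5-fold. The other probe set of LTBP1 was not called (0.67, adjusted p = 0.099).

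In AKT and PI3 kinase signalling 2 of 29 measured genes were lower, 1 was higher and 26 did not pass (median -0.10, and 0.00 in clone wt36 alone). AKT1, a serine/threonine kinase of cell survival, had 8.93 and 8.80 against 9.73 and 9.69 (-0.85, SE 0.10, adjusted p = 0.0073). PIK3C3, the class III PI3 kinase of vesicle traffic, had 7.52 and 7.62 against 8.57 and 8.51 (-0.97, SE 0.10, adjusted p = 0.00411). GAB2, a docking adaptor, had 8.32 and 8.0 against 7.45 and 7.59 (0.64, SE 0.13) and did not pass with 1 weight per line (adjusted p = 0.0782).

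RASSF5 was the called gene of 24 in the RAS and MAPK list (median -0.05). JAG2, a Notch ligand, with 9.66 and 9.86 against 10.91 and 10.84 (-1.12, SE 0.14), was that of 16 in Notch signalling (median -0.14). Among 30 genes of the BCL2 family and death receptors PMAIP1, the proapoptotic NOXA, was lower, with 9.48 and 8.88 against 10.53 and 10.48 (-1.32, SE 0.22, adjusted p = 0.0228), TNFRSF9 was higher and 28 did not pass (median 0.11). IFIT3 (-0.87, SE 0.12) and GBP3 (-0.71, SE 0.11) were the called genes of 28 in the interferon list, and CDKN1C, an inhibitor of cyclin-dependent kinases (-0.90, SE 0.17), that of 49 in the cell cycle list (medians 0.05 and -0.04). The other probe set of IFIT3 was not called (-0.48, adjusted p = 0.0708).

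None of 25 Wnt genes, 18 matrix proteinases and inhibitors, 12 genes of the insulin-like growth factor axis, 8 cytokines and chemokines, 34 genes of glycolysis and hypoxia, 28 of ER stress and amino acid response or 18 of sterol synthesis was called by limma. Their medians lay between -0.06 and 0.08. Over all 24 lists 21 of 580 measured genes were lower and 11 higher, beside 0.873% and 0.38% of all genes tested. The lists and their members were chosen with earlier results of these data known, so these counts are no test of the lists. Members that were not called (among them GSTP1, GPX3, ENG, CD44, CTNNB1, TWIST1, KRT18, PPARG, PRRX1, COL11A1 and TGFB1) were picked after their values were seen. A difference that did not pass is not shown to be absent with 2 arrays per group, since the median SE of a difference was 0.121.

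The lower genes were spread unevenly over the genome. Of 85 lower genes 36 lie on chromosome 18 and 16 on chromosome 14, together 61.2%, although these chromosomes hold 4.74% of the 9731 genes tested. On chromosome 18, 36 of 130 genes were lower (27.7%) and 0 higher, against 0.873% over all genes, and the median log2 fold change was -0.41. It was -0.40 in clone wt22 and -0.42 in clone wt36, and both clones were below both parental arrays for 93 of the 130 genes (71.5%, against 23.8% of all genes). SMAD2, SMAD4, PIK3C3, CDH2, DSG2, TCF4, PMAIP1 and ADNP2 are among these genes.

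On chromosome 14, 16 of 331 genes were lower (4.83%) and 0 higher, with a median of -0.14, and AKT1, JAG2, FLRT2 and CRIP2 are among them. Chromosome 13 followed with 4 of 170 genes lower and a median of -0.11. The other chromosomes together had 33 of 9266 genes lower (0.356%) and all 37 higher ones. The lower genes on chromosomes 14 and 18 were mostly small in change, with a median of -0.80 and 2 of 52 at 4-fold or more. On the other chromosomes the median of the lower genes was -1.4 and 10 of 33 passed 4-fold, MGST1, TOX3, PTN, THY1, JAM2 and GPX1 among them. DNA was not measured on these arrays.

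**Figure D3:**
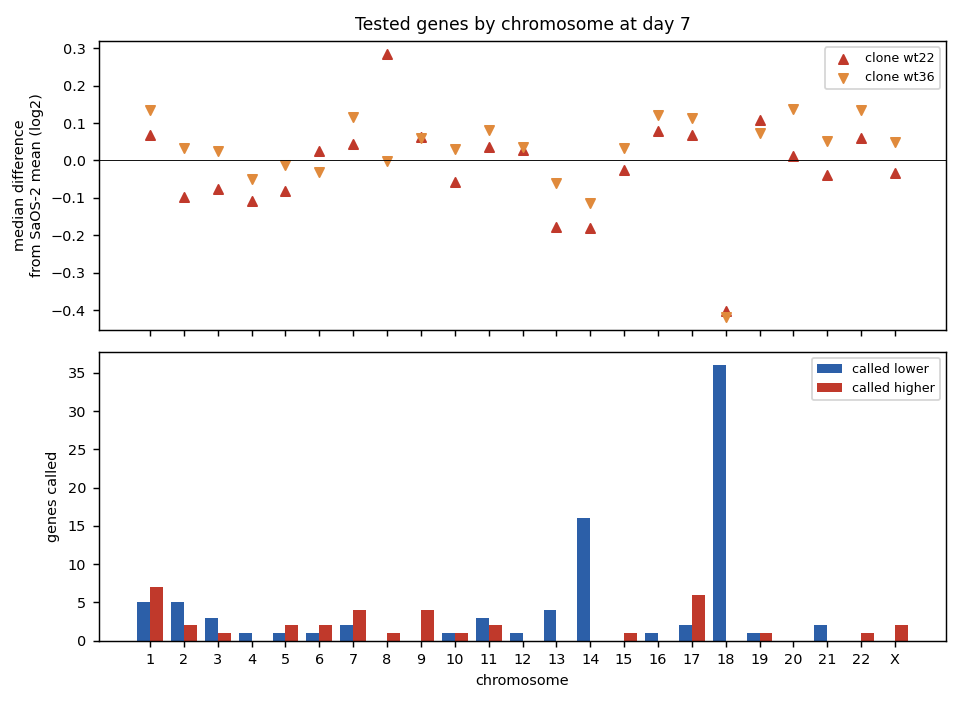
Tested genes by chromosome at day 7: the upper panel gives the median log2 difference of each clone from the SaOS-2 mean, the lower panel the number of genes called lower (blue) and higher (red). Chromosome 18 lies at -0.40 and -0.42 in the 2 clones and holds 36 lower genes, and chromosome 8 lies at 0.28 in clone wt22 and at 0.00 in clone wt36.

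By number, most higher genes lay on chromosomes 1 (7 of 1011, 0.69%), 17 (6 of 567, 1.06%), 7 (4 of 460, 0.87%) and 9 (4 of 417, 0.96%). The share over all genes was 0.38%, and whether these small counts differ from it was not tested. The medians of these chromosomes were 0.11, 0.09, 0.09 and 0.07. On chromosome 8 the clones differed from each other. The median was 0.28 in clone wt22 and 0.00 in clone wt36, and 1 of its 344 genes, TG, was higher.

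The requirement that both clones lie on the same side removed no call. Of the probe sets past the other thresholds, 0 had clones overlapping the parental arrays. The clones nevertheless differed from each other in single genes. Taken 1 clone at a time, 286 genes differed from the parental mean by 1.5-fold or more in clone wt22 alone and 480 in clone wt36 alone. In both clones and in the same direction it was 144 genes, 102 lower and 42 higher, and 37 genes differed by that much in opposite directions. Of 305 genes whose group means differed by 1.5-fold, the clones lay on the same side of both parental arrays for 285 and did not for 20.

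The genes with the greatest distance between clones among these 20 were EPYC, a small leucine-rich proteoglycan, MDK, SLITRK5, EPHA3, PI15 and AMPH. EPYC had 8.28 in clone wt22 and 3.42 in clone wt36 beside 7.72 in SaOS-2. SLITRK5, a neuronal transmembrane protein, had 5.87 and 9.66 beside 8.86 and 8.82. PI15, a secreted protease inhibitor, had 8.05 and 5.45 beside 7.86, and AMPH, amphiphysin, 5.56 and 8.03 beside 7.66 and 7.68. In each of them 1 clone was near SaOS-2 or past it and the other far below, so the group mean describes neither clone. Without clone wt22, PI15 was called (-2.41, adjusted p = 0.0142).

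Among the 37 genes with opposite directions the widest were NLGN4X, a synaptic adhesion protein, with 4.84 in clone wt22 and 9.60 in clone wt36 beside 6.84 and 6.93 in SaOS-2, and A2M, the protease inhibitor alpha-2-macroglobulin, with 8.51 and 12.40 beside 9.98 and 10.04. IBSP, the muscle and stress fibre gene TPM2 (11.53 and 8.43 beside 10.32 in SaOS-2) and the small heat shock protein HSPB1 (10.20 and 7.02 beside 8.92 and 8.98) ran the other way. TPM2 and HSPB1 were named after their values were seen, as were NLGN4X and A2M.

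**Figure D4:**
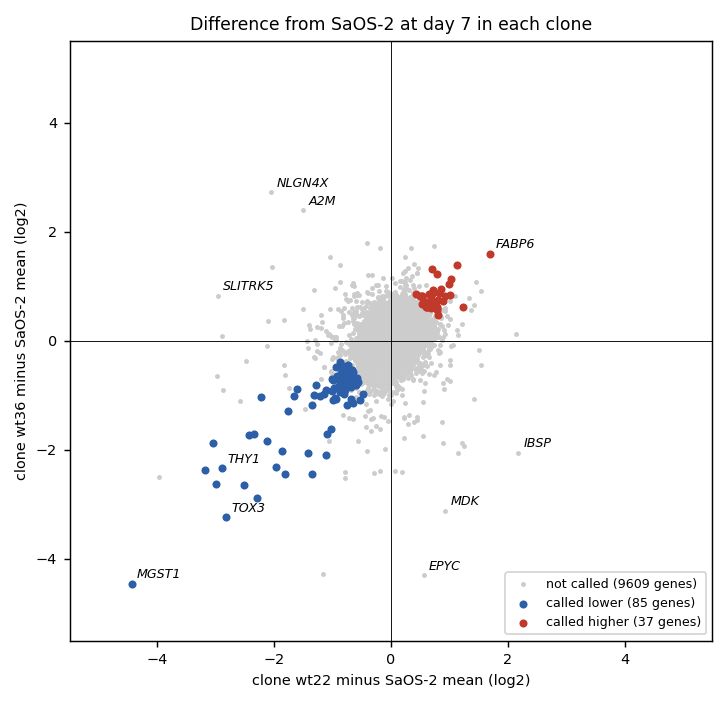
Difference of each clone from the SaOS-2 mean at day 7 (log2), clone wt22 on the horizontal and clone wt36 on the vertical axis, 1 dot per gene, with called genes in colour. Called genes lie where the clones agree in sign, as the rule for calls requires, from MGST1 at the lower end to FABP6 at the upper end. MDK, IBSP, NLGN4X and A2M lie in the quadrants where the clones differ in sign.

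The same lines at days 0 and 14 were used to ask whether a difference was larger or smaller at day 7. Of the 122 genes called at day 7, 119 had the same sign at day 0 and 121 at day 14, in arrays of the same clones. The share of all genes that kept their sign was not counted. By the same test 43 of the 122 were called at day 0 and 65 at day 14. Over all 18677 probe sets 175 and 181 were called on these days. The median log2 fold change of the 85 lower genes was -0.69 at day 0, -0.85 at day 7 and -0.80 at day 14, and that of the 37 higher genes was 0.43, 0.70 and 0.50. These genes were chosen at day 7, which by itself favours larger values on that day. No probe set was called for the interaction of line and day, neither for day 7 against day 0 (0 of 18677, 0%) nor for day 14 against day 7 (0 of 18677, 0%), by limma. At an unadjusted limma p under 0.05 there were 871 and 680 of the 18677 probe sets. Each is a smaller share than the 0.05 that this threshold passes where no difference exists. That does not show such differences to be absent, because the fit had no term for the clones. Differences between the clones correlated over days (r = 0.55 for days 0 and 7, 0.61 for days 7 and 14).

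For some of the largest genes the values by day are given. DLX2 stood at -0.11 at day 0, 0.85 at day 7 and -0.09 at day 14 (interactions 0.96 and -0.94, SE 0.16, adjusted p = 0.389 and 0.9999). FABP6 was at 0.45, 1.64 and 1.10 on the 3 days, KIAA1671 at 0.09, 1.08 and 0.35, and DLX6 at 0.07, 0.87 and 0.18. NRTN was at 1.0, 1.26 and 1.27. Of the lower genes PLXDC1 was at -0.45, -2.02 and -2.43, MGST1 at -3.11, -4.45 and -4.55, SSUH2 at -0.93, -2.08 and -1.37 and THY1 at -1.80, -2.62 and -2.55, while TOX3 was at -2.90, -3.03 and -2.98. With the replicate number as a random block, a further probe set of PLXDC1 (-1.52, adjusted p = 0.0475) and PPFIBP2 (1.14, adjusted p = 0.0475) passed for day 7 against day 0, and with it as a fixed block none did. The parental numbers did not pair these days (r = -0.03).

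**Figure D5:**
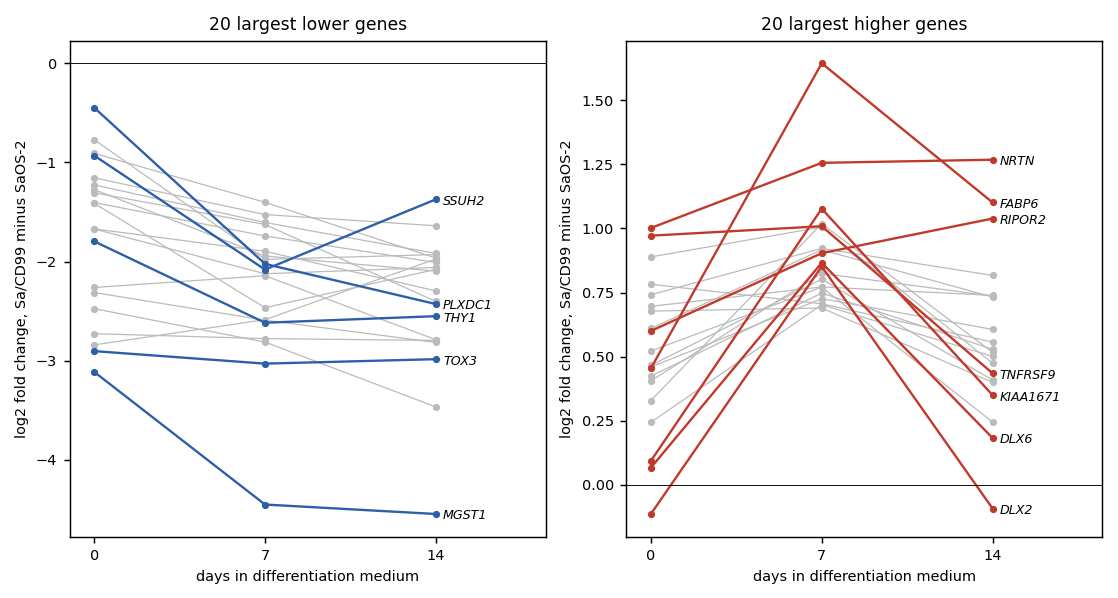
Log2 fold change between the lines (Sa/CD99 minus SaOS-2, means of 2 arrays) at days 0, 7 and 14 for the 20 genes with the largest lower and the 20 with the largest higher values at day 7, with named genes in colour and the rest in grey. MGST1 lies at -3.11, -4.45 and -4.55, and DLX2 at -0.11, 0.85 and -0.09.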

How the data were processed

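The deposited table holds log2 signals of the probe sets of HG-U133 Plus 2.0 arrays, made by the authors from total RNA with RMA: background correction, quantile normalization over the 12 arrays and 1 summary value per set. Both affy and RMA appear in the submitters' processing notes, and their versions are not given in the sources used here. Such values are relative within a probe set, and levels of different probe sets are not compared.

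The 62 control probe sets were left out, and 18677 of 54613 others passed the signal floor (above 100 in at least 4 of 12 arrays), of which 16527 name 1 gene, 829 several and 1321 none. The study's filter on interquartile range was an alternative. Names came from the array annotation, updated by gene ID to RefSeq on GRCh38.p14 (16523 matched, 4 kept the array's name); where a gene had several probe sets, that of highest mean over the 12 arrays represented it. Of the named called genes 6 rest on probe sets that may cross-hybridize (DLX6, MGST1, PTN, RIPOR2, TMEM164 and TOX3). Chromosomes were taken from the same table.

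Group means were fitted over the 12 arrays by limma 3.58.1 (R 4.3.3), where lmFit left 6 residual degrees of freedom and eBayes added 3.015, with Benjamini-Hochberg adjustment over all probe sets tested and the study's thresholds (adjusted p of at most 0.05, at least 1.5-fold). An exact permutation test of 2 arrays against 2 cannot go below a two-sided p of 0.333 and was not used. The fit was tested on simulated data. The text names up to 20 called genes per direction, up to 6 called members of each of 24 lists (893 genes), up to 6 genes on which the clones disagree and a fixed group; SPP1 was under the floor, and no probe set names BGLAP alone. Members and lists were chosen with earlier results of these data known.

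A clone number marks the same line on each day and pairs the arrays labelled Sa/CD99 over days: the differences between clones correlated with r = 0.55 (days 0 and 7), 0.31 (days 0 and 14) and 0.61 (days 7 and 14) over probe sets. For the parental numbers r was -0.03, 0.23 and -0.04. The main fit had no term for this pairing. Its p-values therefore treat the arrays of a clone on different days as independent, although there are only 2 clones. The alternatives were the replicate block as a random or fixed term, other filters, normalization, priors, weights and thresholds, and leaving out each array. Precision is limited by the number of arrays.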

Additional observations from a re-analysis of the deposited data

How the results depend on the processing

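Of 59 named called genes, 58 or 59 stayed called with the interquartile range filter (58 of the 58 tested), quantile normalization again, the trend and robust prior, probe sets of 1 gene, the random replicate block (SCIN lost, adjusted p = 0.0524) or 1 weight per line (GAB2 lost). It was 55 with the mean of a gene's probe sets and 52 with no filter on low values. None changed sign under any setting. Only quantile normalization again and the mean of a gene's probe sets alter the day 7 values themselves. Under the other settings the sign could not change, because a call required both clones on 1 side of both parental arrays. With the 4 arrays of day 7 alone 7 probe sets were called (5 lower and 0 higher genes) and the CD99 probe set of lower mean did not pass (-4.17, adjusted p = 0.148); a test against 1.5-fold called 17 (8 and 0). Quantile normalization again gave 77 higher genes and 1 probe set for the interaction of days 7 and 0, the random replicate block 2 for that interaction and 242 at day 7, the fixed replicate block, fitted for the interactions alone, 0 for each of both, and no filter 1 for days 14 and 7. With 1 array left out, the count at day 7 ranged from 17 to 580 probe sets, lower genes from 7 to 121, higher genes from 1 to 128, the CD99 probe set of lower mean from -4.99 to -3.36, and the lone array of its group is assumed to vary like the other groups. Over the same settings some uncalled means changed sign. Without clone wt22 these were AMPH (range -2.11 to 0.356), EPHA3 (-2.89 to 0.0917), SLITRK5 (-2.97 to 0.821), SP7 (-0.0768 to 0.83) and IBSP (-2.05 to 2.17), and without clone wt36 EPYC (-4.30 to 0.556), MDK (-3.12 to 0.919), PI15 (-2.41 to 0.186), RUNX2 (-0.034 to 0.0211) and SPARC (-0.0681 to 0.174); the cause was not tested.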

Other observations

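Of the 232 called probe sets, 9 name no gene and 8 several. All 9 without a gene were lower in the clones, by log2 fold changes from -2.20 to -0.59. Of 49 called genes with several probe sets past the floor, all probe sets had the same sign in 48, and the exception was the noncoding RNA BAIAP2-DT. Among the lower genes clone wt22 was further from SaOS-2 than clone wt36 in 52 of 85, and among the higher genes in 14 of 37.

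MFAP2, a protein of elastic microfibrils, had 6.63 and 6.20 in the clones against 7.38 in both parental arrays (-0.96, SE 0.17), and GPC6, a heparan sulfate proteoglycan, 8.55 and 8.80 against 9.35 and 9.47 (-0.73, SE 0.10). The ubiquitin ligase NEDD4L had 7.36 and 7.57 against 8.52 and 8.42 (-1.01, SE 0.11) and the paracaspase MALT1 6.62 and 6.52 against 7.59 and 7.63 (-1.04, SE 0.12). PTPRF, a receptor tyrosine phosphatase, had 8.09 and 8.11 against 7.44 and 7.54 (0.61, SE 0.12), and CBX2, a Polycomb protein, 9.38 and 9.30 against 8.67 in both (0.67, SE 0.12). These 6 genes lie outside the rule for named genes and were picked from the called ones after their values were seen.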
